A study of Homo sapiens with 6 samples.

Results

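The cytosolic ribosomal protein genes encode the proteins of the large (60S) and small (40S) subunits of the ribosome that works in the cytoplasm. They were taken here by symbol, as every gene of the array's probe annotation named RPL or RPS with a subunit number, and pseudogenes and the RPS6K kinases were left out. The rule found 50 of the 14812 genes with a named probeset, 32 of the 60S and 18 of the 40S subunit, and it used no measured value except to take the brightest of several probesets of a gene. Of these, 43 are core genes of the ribosome and 7 are paralogues, each named for the core gene it resembles (RPL3L, RPL7L1, RPL10L, RPL22L1, RPL26L1, RPL39L and RPS27L). Other ribosomal protein genes, among them RPL5 and the P stalk genes, had no named probeset here and are not analysed here. No filter on low values was applied, so all 50 were tested.

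The cells were C4-2, an established human prostate cancer line that descends from LNCaP, cultured in medium with hormones. Of 3 groups of 2 arrays, 1 was given NU7441, a small-molecule inhibitor of the kinase DNA-PKcs, at 1 µM for 24 h, 1 was depleted of DNA-PKcs with a pool of siRNAs against PRKDC for 96 h, and 1 was the control. Control arrays are labelled as DMSO-treated, and the labels do not settle whether those cells, or the NU7441 cells, also received control siRNA. The replicates are labelled biological, all come from 1 line, and the level of PRKDC was not analysed here, so the labels alone define the knockdown. The design asks which transcripts depend on the activity or the amount of DNA-PKcs, a kinase of DNA end joining that belongs to the same family as mTOR.

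Ribosomal proteins are made in nearly equal numbers, since each ribosome holds 1 copy of most of them, and their mRNAs are among the most abundant in growing cells. Most of these mRNAs begin with a 5′ terminal oligopyrimidine (TOP) tract, a C followed by an unbroken run of pyrimidines, through which mTOR and the RNA-binding protein LARP1 set how far they are translated and how long they are kept. In prostate cancer cells, translation of TOP mRNAs is a known output of the PI3K and mTOR pathway. Several ribosomal proteins also bind MDM2 when ribosome assembly is disturbed, which ties them to p53.

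The starts of 11 of these genes are shown because the results below turn on them: 4 called lower and 1 called higher in both treated groups, 3 others with large differences under NU7441, and 3 paralogues. Each line gives 30 bases around the RefSeq transcription start (GRCh38.p14), with the start as base 16 and in capitals the longest pyrimidine run of at least 5 bases that reaches within 4 bases of it, where there is one.

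RPL38 (chr17:74203663-74203692, plus strand): aacggaagtctcgTTCTTTTTCgtcctttt
RPS27 (chr1:153990747-153990776, plus strand): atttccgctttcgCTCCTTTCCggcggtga
RPL37A (chr2:216498829-216498858, plus strand): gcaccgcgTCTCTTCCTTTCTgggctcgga
RPL24 (chr3:101686704-101686733, minus strand): ttcccatgaTTCTCTCTTTCTTTTCgccat
RPS28 (chr19:8321481-8321510, plus strand): tccccgaagcacgtgaCTCCTCTCCgccag
RPL28 (chr19:55385917-55385946, plus strand): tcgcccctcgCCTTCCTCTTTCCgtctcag
RPL22 (chr1:6199581-6199610, minus strand): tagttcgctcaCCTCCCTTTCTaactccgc
RPL29 (chr3:51995881-51995910, minus strand): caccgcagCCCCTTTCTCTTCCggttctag
RPL22L1 (chr3:170870181-170870210, minus strand): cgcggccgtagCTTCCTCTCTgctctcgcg
RPS27L (chr15:63157463-63157492, minus strand): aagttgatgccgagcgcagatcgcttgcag
RPL10L (chr14:46651767-46651796, minus strand): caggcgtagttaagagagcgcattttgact

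RPL38, RPS27, RPL37A, RPL24, RPL28, RPL22, RPL29 and RPL22L1 start with a C and run on in pyrimidines. RPS28 has its run just after an annotated start at A, and RPS27L and RPL10L have none. RPS7 (−0.90) and RPS23 (−0.77), which fell more with NU7441 than RPL29 (−0.65), are not among the lines shown. RPS23 starts with a C followed by at least 4 pyrimidines, and RPS7 does not. Of the 50 genes, 45 were matched to a promoter sequence, and 28 of them (62.2%) began with C followed by at least 4 pyrimidines, against 4.04% of the 27305 genes in the RefSeq table. The pyrimidine run was at least 8 bases long in 31 of 45 (68.9%), against 10% of all genes, and its median length was 10 bases, against 3. In the window of 250 bases before and 50 after the start, searched on both strands, the ETS core CGGAAG was found in 62.2% of the ribosomal protein genes and 19.9% of all genes. The GC box GGGCGG was found in 48.9% and 44.6%, TATAA in 17.8% and 21.1%, and AAGATGG, the core of a YY1 site, in 13.3% and 6.06%.

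The values are linear array intensities, 1 per probeset and array, and intensities of different genes are not compared as levels, since probes differ. The arrays differed at the dim end: the median over all probesets was 24.6 and 26 for NU7441, 28.4 and 27.6 for knockdown and 31.5 and 31.6 for control, while 95th percentiles of 289.5 to 298.9 were found on all 6. Luminal prostate markers were present (6 measured, with summed intensities of 3231 and 3558 on NU7441 arrays, 2802 and 2686 on knockdown arrays, and 2924 and 2821 on control arrays). The stromal markers DCN and LUM, the endothelial markers KDR and VWF and the basal markers KRT5, KRT14 and NGFR had at most 63.2 on any array, where the lowest deposited value is 16. LUM had 16 and 18 with NU7441, against 30.2 and 36.9 in controls (−0.98, limma's adjusted p = 0.00669), and KDR had 16 and 21.3 with NU7441, against 32 and 30.7 in controls (−0.77, limma's adjusted p = 0.0197). LUM was also called lower under the 3 other scalings and KDR under none of them. Other markers went up: the luminal marker KLK3 rose with NU7441 (0.51, limma's adjusted p = 0.011), also under the 3 other scalings. KRT5 and the leukocyte marker LYZ were called higher under those 3 but not as deposited. FOLH1 and HOXB13 were called higher with median centring, and KLK2 lower after cyclic loess normalization. The part of any of these markers in the results below was not tested. The leukocyte markers CD14, CD68 and LYZ summed to between 168 and 202 on the 6 arrays. Most of this was CD68, with 114.6 to 159.6, while CD14 and LYZ had at most 29.8 on any array. The number of arrays limits the precision. For NU7441 minus control the median standard error of a log2 fold change was 0.08 for the ribosomal protein genes, against 0.14 for other bright genes (defined below) and 0.22 over all genes.

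The middle of the family lay within a narrow range on all 6 arrays. The median intensity of the 50 genes was 1390.0 and 1403 with NU7441, 1376 and 1428 after knockdown and 1448 and 1447 in controls. Both replicates of a group lay close together for single genes as well. The median SD of log2 intensity between replicates was 0.071 for NU7441, 0.068 for knockdown and 0.046 for control. Over all genes it was 0.215, 0.139 and 0.087. Most of the 50 genes are bright, and this SD was not calculated for other bright genes alone.

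Around this median, single genes moved in opposite directions in NU7441-treated cells. By limma, with p adjusted by Benjamini-Hochberg over all genes and a threshold of 0.05, 18 of the 50 rose (36%, against 10.8% of all genes tested), 14 fell (28%, against 22.4%) and 18 did not pass. The median log2 fold change, NU7441 minus control, was −0.04 for the ribosomal protein genes and −0.23 for all genes. Bright genes as a whole moved more often than the 33.2% called among all genes. Of the 1294 other genes with a mean log2 intensity above 8 (an intensity of 256, a limit chosen after the data were seen), 39% rose and 28.4% fell with a median of 0.22, and of the 44 ribosomal protein genes above it 17 rose and 14 fell with a median of 0.01. The share of ribosomal protein genes that moved was thus near that of other bright genes, at 70.5% against 67.4%.

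**Figure D1:**
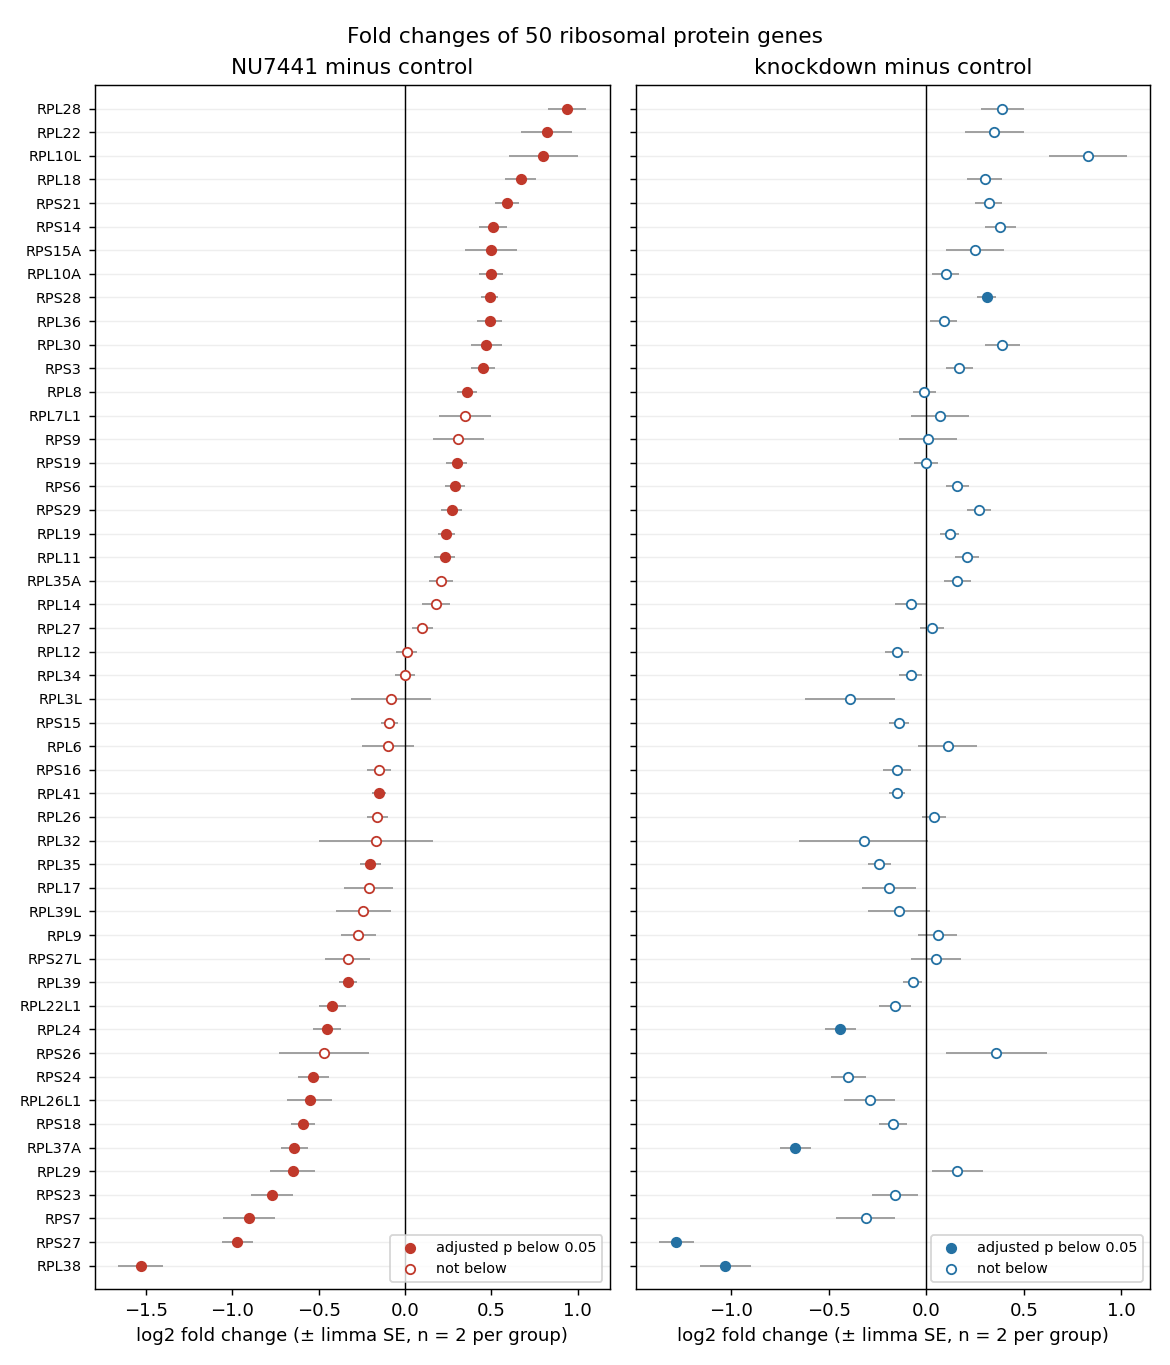
Log2 fold changes (horizontal axis) of the 50 ribosomal protein genes (vertical axis, ordered by the left panel) for NU7441 minus control on the left and knockdown minus control on the right, with limma's standard error as bars and filled points for an adjusted p below 0.05. In the left panel 18 filled points lie right of 0 and 14 left of it, and in the right panel RPS28 is the filled point on the right and RPS27, RPL38, RPL37A and RPL24 are those on the left.

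Direction and number of the calls depended on how the arrays were scaled. The counts were 16 higher and 16 lower after quantile normalization, 25 and 5 after median centring and 13 and 19 after cyclic loess normalization, which set the median of all genes at 0.05, 0.09 and 0.01. As deposited and under all of these scalings, 11 of the 18 stayed higher (RPL8, RPL10A, RPL10L, RPL18, RPL22, RPL28, RPL30, RPL36, RPS14, RPS21 and RPS28) and 5 of the 14 stayed lower (RPL37A, RPL38, RPS7, RPS23 and RPS27). Of the 32 calls, 20 were kept without control replicate 1, which left 10 higher and 10 lower, and 22 without control replicate 2, which left 14 and 8. Over all genes 1051 and 868 passed in these fits, which hold 1 control array, against 4917. Without the mean-variance trend in the fit 13 were kept, with 5 higher and 8 lower. Over all genes 4635 still passed in that fit, against 4917. Under all 16 alternatives run, RPL18, RPL22, RPL28 and RPS21 stayed higher, and RPL37A, RPL38, RPS7, RPS23 and RPS27 stayed lower.

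**Figure D2:**
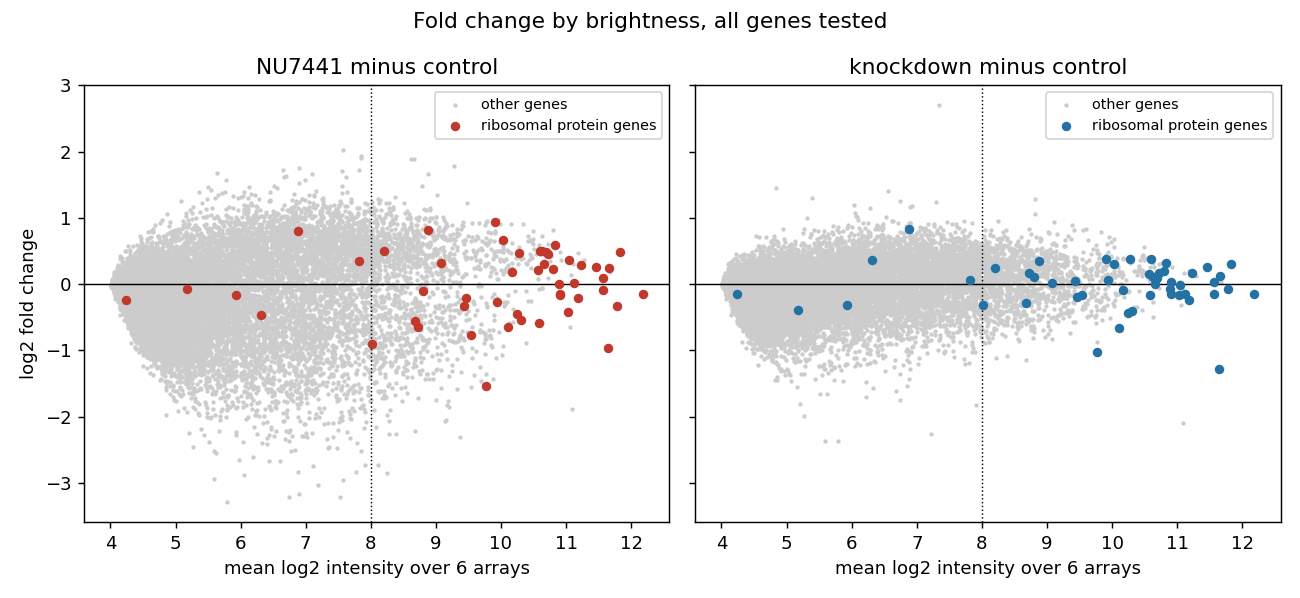
Log2 fold change (vertical axis) against mean log2 intensity over the 6 arrays (horizontal axis) for all 14812 genes, with the ribosomal protein genes coloured, for NU7441 minus control on the left and knockdown minus control on the right; the dotted line marks a mean of 8. Most coloured points (44 of 50) lie right of the line, on both sides of 0, with RPL38 at −1.53 the lowest coloured point on the left and RPS27 at −1.28 the lowest on the right.

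Among 60S genes, RPL38 had the lowest value. RPL38, which in mouse is needed for translation of a subset of Hox mRNAs and for normal patterning of the skeleton, had 473 and 628 in the NU7441 group, 809.8 and 737 in the knockdown group and 1614 and 1545 in the controls. All 4 treated arrays lay below both controls, and the NU7441 arrays lowest. The fall was 2.9-fold with NU7441 (log2 fold change −1.53 ± 0.13, limma SE, n = 2 per group, adjusted p = 0.000297). RPL29, a protein at the outer side of the large subunit also described as heparin-binding, had 279 and 328 with NU7441, 527 and 533 after knockdown and 461 and 486 in controls. Here only the NU7441 arrays were low (−0.65 ± 0.13, adjusted p = 0.00617), but the gene did not pass without either control replicate or after median centring. RPL37A, a zinc-binding protein, had 957 and 964 with NU7441, 992 and 896 after knockdown and 1531 and 1464 in controls. Both treated groups lay below the controls and overlapped each other (−0.64 ± 0.08 for NU7441, adjusted p = 0.00126).

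Further 60S genes fell by less under NU7441. RPL24, whose mouse mutation (Belly spot and tail) lowers protein synthesis, had 1111 and 1073 on NU7441 arrays, 1154 and 1051 with knockdown and 1458 and 1534 in controls (−0.45 ± 0.08 for NU7441). RPL39, a very small protein that lines the exit tunnel of the large subunit, had 3105 and 3060.0 with NU7441, against 3807 and 3929.9 in controls (−0.33 ± 0.05). RPL35, which sits at the mouth of that tunnel, had 2195 and 2307 with NU7441, against 2553 and 2628 in controls (−0.20 ± 0.06), and RPL41, the smallest of the ribosomal proteins, had 4497 and 4481 with NU7441, against 4967 and 4970.4 in controls (−0.15 ± 0.04). NU7441 and control arrays did not overlap for any of these 4, but the size was small for the last of them. RPL35 and RPL41 changed sign with median centring (0.12 and 0.17), RPL41 also after quantile normalization (0.27). With control replicate 2 left out, RPL24, RPL35 and RPL41 were not called, and without control replicate 1 or NU7441 replicate 1 RPL35 and RPL41 were not, nor RPL41 without NU7441 replicate 2. None of the 4 was called lower with median centring.

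On the small subunit, RPS27 and RPS7 were lowest. RPS27, a zinc-finger protein also called metallopanstimulin, had 2666 and 2833 with NU7441, 2415 and 2018 after knockdown and 5048 and 5717 in controls. Every treated array was well under every control, and the knockdown arrays were the lowest (−0.97 ± 0.09 for NU7441, adjusted p = 0.000409). RPS7, a protein of 40S assembly that also binds MDM2, had 168 and 199 with NU7441, 280.2 and 271 after knockdown and 341 and 342 in controls (−0.90 ± 0.15, adjusted p = 0.00319). RPS23, which lies next to the decoding site, had 486 and 605 with NU7441, 818 and 842 after knockdown and 953 and 899 in controls (−0.77 ± 0.12, adjusted p = 0.0022). For both genes the knockdown arrays lay between the NU7441 and the control arrays. RPS18, a protein of the head of the 40S subunit, had 1250.1 and 1187 with NU7441, against 1805 and 1868 in controls (−0.59 ± 0.07). RPS24, one of the genes mutated in Diamond-Blackfan anaemia, had 1002 and 1172 with NU7441, 1248 and 1129 after knockdown and 1551 and 1588 in controls (−0.53 ± 0.09 for NU7441). RPS18 and RPS24 lost the call with median centring.

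**Figure D3:**
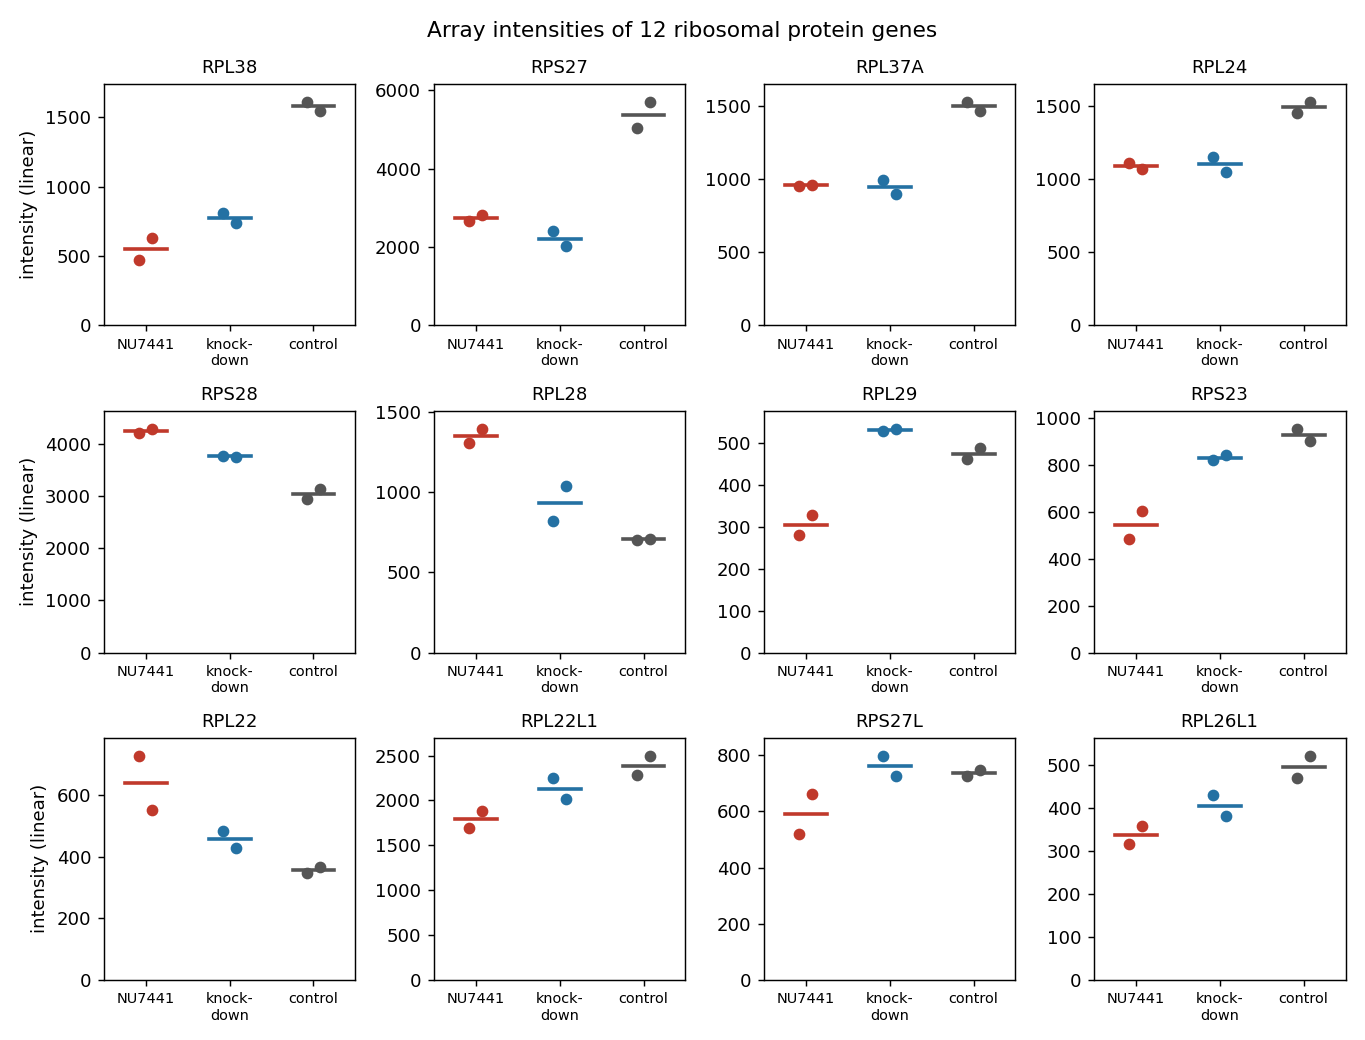
Linear intensity (vertical axis, from 0) of 12 ribosomal protein genes on each array, with NU7441, knockdown and control side by side; points are single arrays and bars are group means (n = 2). RPL38, RPS27, RPL37A and RPL24 have both treated groups under the controls, RPS28 and RPL28 have them above, and RPL29 and RPS23 have the NU7441 group alone well below the others.

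The 60S genes with higher intensity were led by RPL28 and RPL22. RPL28, a large-subunit protein that budding yeast lacks, had 1304 and 1394 in the NU7441 group, 818 and 1039 in the knockdown group and 703 and 708 in the controls. Groups stood apart, with NU7441 highest, a 1.91-fold rise (0.94 ± 0.11, adjusted p = 0.00102). RPL22, an RNA-binding protein that mice can live without, had 729 and 551 with NU7441, 484 and 429.6 after knockdown and 349 and 369 in controls (0.82 ± 0.15, adjusted p = 0.00466). RPL18 had 1245 and 1412 with NU7441, 1064 and 994 after knockdown and 814 and 851 in controls (0.67 ± 0.09, adjusted p = 0.00149). In all of these the order of the group means was NU7441, knockdown, control.

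RPL10A, which forms the mobile L1 stalk beside the exit site for tRNA, had 2016 and 1899 with NU7441, against 1391 and 1380.4 in controls (0.50 ± 0.07). RPL36 had 2089 and 1962 with NU7441, against 1452 and 1432 in controls (0.49 ± 0.07). RPL30, which in yeast represses splicing of its own transcript, had 1459 and 1374 with NU7441, 1255 and 1416 after knockdown and 981 and 1060.5 in controls (0.47 ± 0.09 for NU7441). RPL8, a protein close to the peptidyl transferase centre, had 2472 and 2519 with NU7441, against 1908 and 1968 in controls (0.36 ± 0.06). None of these 4 had NU7441 and control arrays that overlapped. The rises of RPL19 (3497 and 3534 with NU7441, against 2882 and 3063 in controls, 0.24 ± 0.05) and of RPL11 (1922 and 1856 with NU7441, against 1593 and 1628 in controls, 0.23 ± 0.06) were smaller. RPL11 binds MDM2 together with RPL5 and the 5S rRNA. Its value was −0.04 after quantile normalization, and its call was lost without either control replicate and without NU7441 replicate 1, whereas the calls of RPL19 and RPL30 were lost without control replicate 1. RPL19 also lost its call after cyclic loess normalization and was called lower (−0.52) with the mean of its 2 probesets, which point opposite ways.

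On the small subunit 8 genes rose, and RPS21 had the highest value. RPS21 had 2357 and 2098 on NU7441 arrays, 1855 and 1836 with knockdown and 1443 and 1517 in controls (0.59 ± 0.07 for NU7441, adjusted p = 0.00107). RPS14, lost in the myelodysplastic syndrome with deletion of the long arm of chromosome 5, had 1895 and 1707 with NU7441, 1657 and 1644 after knockdown and 1205 and 1332 in controls (0.51 ± 0.08, adjusted p = 0.00261). RPS28, a protein at the mRNA exit of the 40S subunit, had 4212 and 4287 with NU7441, 3772 and 3739.7 after knockdown and 2938 and 3128 in controls (0.49 ± 0.05, adjusted p = 0.000476). In each of these the 3 groups did not overlap and ran from NU7441 over knockdown to control. RPS15A, a protein of the body of the 40S subunit, had 378 and 328 with NU7441, against 233 and 265 in controls (0.50 ± 0.15). RPS3, which lies at the mRNA entry and has also been described as a DNA repair factor, had 1935 and 2078 with NU7441, against 1465 and 1462 in controls (0.45 ± 0.07). RPS19, the gene most often mutated in Diamond-Blackfan anaemia, had 1854 and 1880.2 with NU7441, 1508 and 1519 after knockdown and 1519.8 and 1517 in controls (0.30 ± 0.06 for NU7441), so that knockdown and control arrays overlapped and the NU7441 arrays stood above. RPS6, the substrate of the S6 kinases downstream of mTOR, had 2672 and 2584 with NU7441, against 2097 and 2211 in controls (0.29 ± 0.06). RPS29, a zinc-binding protein, had 2881 and 3096 with NU7441, against 2436 and 2535 in controls (0.27 ± 0.06). RPS15A and RPS19 lost the call without either control replicate, RPS15A also without either knockdown replicate, and RPS6 and RPS29 without control replicate 1. After quantile normalization RPS3, RPS6 and RPS19 were not called.

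The 18 genes that did not pass had log2 fold changes between −0.47 (RPS26, adjusted p = 0.194) and 0.35 (RPL7L1, adjusted p = 0.0985). RPL35A (1545 and 1693 with NU7441, against 1407 and 1391 in controls) lay at the edge, with an adjusted p of 0.0502. The smallest differences in size were those of RPL34 (−0.00 ± 0.06) and RPL12 (0.01 ± 0.06).

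Both subunits had genes on either side. Of the core genes, 9 of 26 of the 60S and 8 of 17 of the 40S subunit rose, and 7 and 5 fell. Among proteins that bacteria, archaea and eukaryotes share, 7 of 17 rose and 3 fell, and among the other core proteins 10 of 26 rose and 9 fell. By position in the genome, 5 of the 8 genes on chromosome 19 rose (RPL18, RPL28, RPL36, RPS19 and RPS28) and 0 fell in limma's test (also 0 at an unadjusted p under 0.05), with a median log2 fold change of 0.40. The 42 genes on other chromosomes had 13 higher, 14 lower and a median of −0.12. Among them, RPL22L1, RPL24 and RPL29 on chromosome 3 fell, while RPL14, RPL32, RPL35A and RPL39L there did not pass. No chromosome but 19 was counted apart, and RPS19 lost its call after quantile or cyclic loess normalization. Other bright genes on chromosome 19 also lay high, with 49.3% higher, 13% lower and a median of 0.37 over 69 genes, against 38.4%, 29.2% and 0.20 over 1225 on other chromosomes. The TOP start described above was present in 12 of the 14 genes that fell, 9 of 15 that rose and 7 of 16 that did not pass, among those with a sequence.

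After depletion of DNA-PKcs, RPS27, RPL38, RPL37A and RPL24 fell and RPS28 rose. Thus 1 of the 50 rose (2%, against 0.284% of all genes tested) and 4 fell (8%, against 0.486%). At an unadjusted p under 0.05 in limma's test 13 were higher and 11 lower after knockdown, beside 20 and 17 with NU7441. The difference between these counts was not tested. The share of all genes at an unadjusted p under 0.05 was not counted, here or where such counts are given elsewhere. With the knockdown and control arrays alone 9 were higher and 6 lower, among 2843 genes called in all, and with array weights 10 and 7, among 2663. The median log2 fold change, knockdown minus control, was 0.02, against −0.09 over all genes. Of the 1294 other bright genes, 2.4% rose and 1.24% fell with a median of 0.12. Since both treated groups were set against the same control arrays, values of a gene in the 2 comparisons are not independent and are given side by side.

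RPS27 fell 2.43-fold after knockdown (−1.28 ± 0.09, adjusted p = 0.000656), beside −0.97 ± 0.09 with NU7441. RPL38 fell 2.04-fold (−1.03 ± 0.13, adjusted p = 0.0196), beside −1.53 ± 0.13. RPL37A was −0.67 ± 0.08 (adjusted p = 0.0187), beside −0.64 ± 0.08, and RPL24 was −0.44 ± 0.08 (adjusted p = 0.0472), beside −0.45 ± 0.08. These 4 encode core proteins that bacteria lack, as do 26 of the 43 core genes, RPS28 among them. Each of the 4 starts with a TOP tract in the lines above, as do 27 of the 40 core genes with a sequence. RPS28 rose to 3772 and 3739.7, against 2938 and 3128 in controls (0.31 ± 0.05, adjusted p = 0.0385), beside 0.49 ± 0.05 with NU7441.

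RPS27 kept its call in 14 of the 16 alternatives (adjusted p from 8.44e-11 to 0.0777) and lost it without knockdown replicate 2 (−1.15, adjusted p = 0.0777) and without the mean-variance trend (−1.28, adjusted p = 0.0697). Fits without 1 knockdown or control array leave a single array in that group, and 1 to 3 of all 14812 genes passed in them, against 114, so they say little about single calls. In them 0 ribosomal protein genes were called higher and 1 lower without knockdown replicate 1 or either control replicate, and 0 and 0 without knockdown replicate 2 (7 and 7 at an unadjusted p under 0.05). The log2 fold changes in these fits ran from −1.41 to −1.15 for RPS27, from −1.1 to −0.96 for RPL38, from −0.74 to −0.59 for RPL37A, from −0.51 to −0.37 for RPL24 and from 0.26 to 0.35 for RPS28. With either NU7441 replicate left out, more ribosomal protein genes were called, as were many more of all genes. Their median log2 fold change, for the ribosomal protein genes, stayed at 0.02. As deposited and under the 3 other scalings, RPS28 stayed higher and RPL38 and RPS27 stayed lower.

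Of the genes that did not pass, RPL10L had the highest value after knockdown, with 142 and 145, against 85.8 and 76.0 in controls (0.83 ± 0.20, adjusted p = 0.0774). RPL30 (0.39 ± 0.09, adjusted p = 0.0709), RPL28 (0.39 ± 0.11, adjusted p = 0.116) and RPS14 (0.38 ± 0.08, adjusted p = 0.0618) followed, each with both knockdown arrays above both controls. RPS24 (−0.40 ± 0.09, adjusted p = 0.0757) was the next lowest after RPL24.

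Setting the treatments directly against each other gave 6 genes higher with knockdown than with NU7441 (12%, against 5.83% of all genes tested) and 8 lower (16%, against 2.84%). The median difference was −0.05, against 0.11 over all genes, and of the other bright genes 16% were higher and 13.8% lower. Among the called genes RPL29 differed most, with 527 and 533 on knockdown and 279 and 328 on NU7441 arrays (0.81 ± 0.13, adjusted p = 0.00845), followed by RPS23 (0.61 ± 0.12), RPS7 (0.59 ± 0.15), RPL38 (0.50 ± 0.13), RPS18 (0.42 ± 0.07) and RPL39 (0.26 ± 0.05). The dim RPS26 was at 0.83 ± 0.26 but did not pass (limma's adjusted p = 0.0815). RPL28 was lowest, with 818 and 1039 on knockdown and 1304 and 1394 on NU7441 arrays (−0.55 ± 0.11, adjusted p = 0.0231). RPL36, RPL10A, RPL8, RPL18, RPS19, RPS3 and RPS28 lay between −0.40 ± 0.07 and −0.18 ± 0.05. For RPS27 the difference did not pass (−0.32 ± 0.09, adjusted p = 0.0555), nor did it for RPL37A (−0.03 ± 0.08) and RPL24 (0.01 ± 0.08). Without either knockdown replicate, 0 genes passed in each direction in limma's test (6 higher and 13 lower at an unadjusted p under 0.05 without replicate 1, 10 and 9 without replicate 2), where 7 and 0 of all genes passed, against 1284. The counts were 9 higher and 1 lower after quantile normalization and 2 and 14 after median centring. Without NU7441 replicate 2 more genes were called in both directions, and without either control replicate fewer were, as among all genes. The median difference was −0.03 without NU7441 replicate 2 and −0.05 without either control replicate. As deposited and under the other 3 scalings, RPL29 and RPS23 stayed higher and RPL36 lower.

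The 7 paralogues each resemble a core gene, and 4 of those core genes were measured (RPL22, RPL26, RPL39 and RPS27). RPL22L1, which RPL22 represses in mouse, fell, with 1696 and 1879 in NU7441-treated cells, 2250.3 and 2014 after knockdown and 2279.8 and 2496 in controls (−0.42 ± 0.08, adjusted p = 0.00582), while RPL22 rose (0.82 ± 0.15). The fall of RPL22L1 was not called with median centring or without control replicate 2. RPL26L1 had 317 and 359.7 with NU7441, 432 and 381 after knockdown and 471 and 522 in controls, a fall with NU7441 (−0.55 ± 0.13, adjusted p = 0.014) that was not called with median centring or without either control replicate. RPL26, with 1818 and 1727 with NU7441 against 1975 and 1979 in controls, did not pass (−0.16 ± 0.06). RPS27L, a p53 target, had 521 and 663 with NU7441, 798 and 727 after knockdown and 728 and 747 in controls. It did not pass in either comparison (−0.33 ± 0.13 and 0.05 ± 0.13), beside the falls of RPS27. Differences between the members of a pair were not tested.

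RPL10L, a gene without introns that in mouse replaces X-linked RPL10 during male meiosis, had 154 and 128 with NU7441, 142 and 145 after knockdown and 85.8 and 76.0 in controls. It rose with NU7441 (0.80 ± 0.20, adjusted p = 0.0148), a call lost without either control replicate. Because RPL10L resembles RPL10 closely, its probes may read both. RPL39L, best known from testis, lay near the floor of 16 on all arrays (16 and 19.1 with NU7441, 20.8 and 16.8 after knockdown and 19.8 and 21.6 in controls), and RPL3L, a paralogue of striated muscle, had 39.1 and 37.3 with NU7441, 34.3 and 27.6 after knockdown and 41.3 and 39.3 in controls. RPL7L1 had 276 and 249.6 with NU7441, 227 and 205 after knockdown and 206 and 204 in controls and did not pass in any comparison. Of the 7 paralogues, 1 of 5 with a sequence had a TOP start.

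Ribosomal protein genes have many processed pseudogenes, and the probes of a core gene may read such copies, which was not tested. For 4 genes several probesets were measured, and they did not always agree. The brightest RPL19 probeset rose as above, whereas the second had 857 and 1072 with NU7441, 902 and 864 after knockdown and 2239 and 2452 in controls, a log2 fold change of −1.29 with NU7441 and −1.41 after knockdown. Thus both treated groups lay far below the controls in 1 probeset and slightly above them in the other, and the mean over both probesets gave −0.52 for NU7441. The second RPS18 probeset, with 756 and 713 on NU7441 arrays against 746 and 786 on control arrays, was at −0.06, where the brightest was at −0.59. RPL39 was at −0.33 in the brightest and 0.09 in the second probeset. The 5 probesets of RPL41 all had lower means with NU7441 than in controls, from −0.04 to −0.74. Averaged over probesets, the calls of RPL39 and RPL19 in their stated directions were lost.

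**Figure D4:**
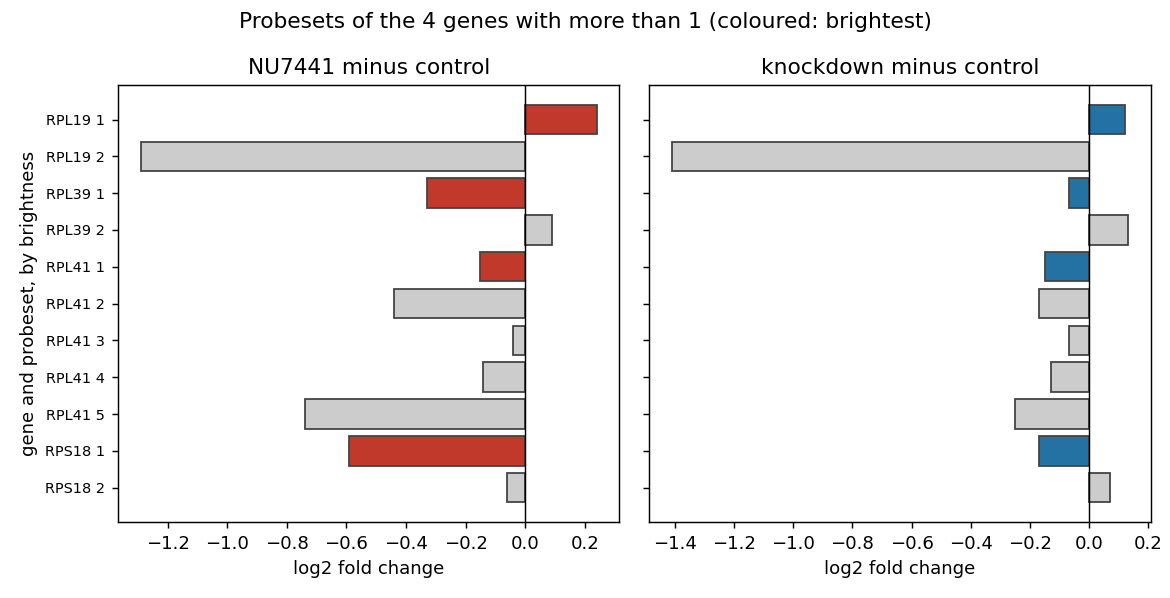
Log2 fold change (horizontal axis) of each probeset of the 4 ribosomal protein genes with more than 1 (vertical axis, numbered by brightness), for NU7441 minus control on the left and knockdown minus control on the right; coloured bars are the brightest probesets, used elsewhere in the text. The second RPL19 probeset, at −1.29 and −1.41, points away from the first, at 0.24 and 0.12.

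Around the ribosomal protein genes, 12 genes of other TOP mRNAs and translation factors were measured. With NU7441, EEF2 and EIF4B rose and RPL36AL, NAP1L1 and BTF3 fell, so 2 and 3 of 12, against 10.8% and 22.4% of all genes, and the median was −0.10, against −0.23. Median centring gave 6 higher and 2 lower, without BTF3, and EIF4B was not called after quantile or cyclic loess normalization. EEF2, the elongation factor that moves the ribosome along, had 1441 and 1551 on NU7441 arrays, against 824 and 765 on control arrays (0.91 ± 0.09), and EIF4B, a helper of the initiation helicase, had 1224 and 1182 with NU7441, against 936 and 959.5 in controls (0.34 ± 0.08). RPL36AL, a ribosomal protein paralogue whose symbol the rule did not take, had 385 and 537 with NU7441, 999 and 884 after knockdown and 936 and 1030.2 in controls (−1.11 ± 0.15 for NU7441). NAP1L1, a histone chaperone encoded by a TOP mRNA, fell as well (−1.03 ± 0.14), as did BTF3, a subunit of the nascent chain complex (−0.70 ± 0.15).

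Of 20 measured genes that escort ribosomal proteins or finish the subunits, 7 fell and 2 rose with NU7441, against 22.4% and 10.8% of all genes, with a median of −0.65, against −0.23. The 7 were also called lower under the 3 other scalings, beside 5 higher with median centring and 1 after cyclic loess normalization. LTV1, an export and assembly factor of the 40S subunit, had 44.0 and 104 in the NU7441 group, 242 and 205 in the knockdown group and 377 and 377 in the controls (−2.48 ± 0.33), with groups that did not overlap. RIOK1, an assembly kinase of the same subunit, had 20.0 and 96.7 with NU7441, against 232 and 201 in controls (−2.29 ± 0.56), with the 2 NU7441 arrays far apart. RPF2, which brings RPL5, RPL11 and the 5S rRNA into the large subunit, fell by 1.13 on the log2 scale, and RIOK2, BCCIP, NMD3 and PDCD2L also fell. NOB1, the nuclease that finishes 18S rRNA (0.58 ± 0.16), and EIF6, which keeps the subunits apart (0.54 ± 0.13), rose.

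Of 7 genes that control TOP mRNA translation, AKT1S1, which encodes the mTOR inhibitor PRAS40 (1.19 ± 0.19), and MTOR (0.63 ± 0.16) rose with NU7441. EIF4EBP1, a translation repressor that mTOR phosphorylates, fell (−0.48 ± 0.13), a call lost with median centring. The counts were thus 2 higher and 1 lower of 7, against 10.8% and 22.4% of all genes tested. PDCD4, an inhibitor of the initiation helicase, was at −2.07 ± 0.72 (adjusted p = 0.0515), with 35.7 and 297 on the 2 NU7441 arrays and 409 and 460.3 in controls. Of 4 factors that bind ribosomal protein promoters, MYC had 838 and 664 with NU7441, against 357 and 332 in controls, and rose (1.12 ± 0.14), while its partner MAX, with 112 and 149.6 with NU7441 against 254 and 280.0 in controls, fell (−1.04 ± 0.20), and SP1 (−0.10 ± 0.17) and YY1 (−0.09 ± 0.21) did not pass. Among these factors 1 of 4 thus rose and 1 fell, against 10.8% and 22.4% of all genes tested. MDM4, a partner of MDM2 in the control of p53, rose (0.54 ± 0.15), a call lost after cyclic loess normalization. After knockdown, 0 of the 44 genes in these 5 lists passed limma's test, against 0.77% of all genes tested. At an unadjusted p under 0.05 in that test 7 were higher and 4 lower. AKT1S1 (0.90 ± 0.19, limma's adjusted p = 0.0627), EIF6 (0.61 ± 0.13, adjusted p = 0.0628) and MAX (−0.91 ± 0.20, adjusted p = 0.0682) lay just over the threshold. The list medians were −0.03 for other TOP mRNAs, 0.08 for escort and maturation genes, 0.02 for TOP translation control and −0.35 for the promoter factors.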

How the data were processed

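Per the labels' protocols, cDNA amplified from total RNA of C4-2 cells was hybridised, with a biotin label, to Affymetrix Human Gene ST arrays. The authors deposited 1 linear intensity per probeset and array. How these intensities were summarised and normalized, and on which build, is not given in the sources used here. Each of the 6 columns was tied to its sample by identifier. Of 44629 probesets, 15835 carried 1 gene symbol in the platform annotation, 0 several and 28794 none here, and the brightest stood for each of 14812 genes. The 50 ribosomal protein genes lay on 57 probesets, all matched RefSeq and 0 symbols changed.

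Intensities were taken to log2 without scaling or filter, since the files hold linear values, and fitted with limma 3.58.1 in R 4.3.3 over all 6 arrays (3 residual degrees of freedom, eBayes with trend, two-sided, Benjamini-Hochberg over all genes, threshold 0.05). Log2 fold changes stand beside their standard error from limma (n = 2 per group). All groups are assumed to share 1 spread, although NU7441 arrays varied more. Tested on data simulated with 1 shared spread per gene, the procedure made false calls somewhat more often than the threshold states. It missed most of the smallest fold changes put in, so a gene that did not pass may still differ. The simulation left out the larger spread of the NU7441 arrays, so it does not give the rate of false calls in these data. NU7441 and control array values are shown for the 8 lowest and 8 highest genes with NU7441, the 4 lowest and 4 highest after knockdown, all called genes, paralogues and the second probesets of RPL19 and RPS18. Knockdown array values are shown for only part of these. For list genes the 2 highest and 2 lowest are named with a few others chosen after their values were seen. Genes and lists were chosen with earlier results of these data known. Alternatives were the scaling, the offset of 16, the probeset of a gene, dim genes, the trend, the arrays in the fit, a replicate block, array weights and leaving out each array. The lists were also counted under the other scalings, an alternative chosen after seeing the data.

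Starts and promoters came from RefSeq (GRCh38.p14); the first listed start was used for 7 genes with several, and 5 genes had no sequence in that table.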

Additional observations from a re-analysis of the deposited data

How the results depend on the processing

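Counts are given as genes higher and lower, then the median log2 fold change, of the 50 ribosomal protein genes. For NU7441 minus control (18, 14, −0.04) the median became 0.00 after quantile normalization, −0.09 with the mean of probesets and 0.01 with dim genes left out. Median centring gave 25, 5 and 0.28. Leaving out the mean-variance trend gave 5 and 8, while 4635 of all genes passed, against 4917. Leaving out each replicate in turn gave 10 to 19 higher, 8 to 16 lower and medians from −0.04 to 0.04. For knockdown minus control (1, 4, 0.02) quantile normalization gave 5 higher, median centring 2, 2 and 0.16, and cyclic loess normalization a median of −0.05. The offset of 16 subtracted gave 0 and 1, no mean-variance trend 0 and 0 (1 and 5 at an unadjusted p under 0.05 in limma's test), the compared groups alone 9 higher, and array weights 10 and 7. Leaving out each replicate changed the number called, among all genes as well, and gave medians from −0.01 to 0.05. For knockdown minus NU7441 (6, 8, −0.05) quantile normalization gave 1 lower and a median of 0.03, median centring 2, 14 and −0.22, and cyclic loess normalization a median of −0.00. The offset subtracted gave 3 and 5, no trend 1 and 0, the compared groups alone 5 lower and array weights 4 lower. Over all genes 820 passed without the trend, against 1284. Leaving out each replicate gave 0 to 11 higher, 0 to 10 lower and medians from −0.08 to −0.03.

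Among single genes the sign of the NU7441 value turned for RPL11 (−0.04) and RPL41 (0.27) after quantile normalization, for RPL35 (0.12) and RPL41 (0.17) with median centring and for RPL19 (−0.52) with the mean of probesets. The cause of these changes was not tested. Over all genes, 67.4% of the calls for NU7441 were lower as deposited, 47.8% after quantile normalization, 33.0% with median centring and 53.5% after cyclic loess normalization. For knockdown minus NU7441 the shares were 32.8%, 43.4%, 61.5% and 42.0%, and for knockdown minus control 63.2%, 61.2%, 25% and 78.5%, in the same order. The number of calls over all genes without control replicate 1 or 2 was 1051 and 868 for NU7441, against 4917. Replicate numbers did not pair the arrays: the correlation of same-numbered deviations was −0.005 for NU7441 and control, −0.013 for knockdown and control and −0.068 for knockdown and NU7441. With the replicate number as a block the counts were 18 and 13 for NU7441 minus control, 0 and 3 for knockdown minus control and 4 and 5 for knockdown minus NU7441. With 2 arrays per group and a floor of 16, small differences of dim genes such as RPL39L could not be detected.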

Other observations

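For 3 ribosomal protein genes that did not pass in any comparison, the 2 NU7441 replicates lay apart, and the probesets of RPL32 and RPS26 were dim. RPL32, a core 60S protein, had 42.1 and 87.1 with NU7441, 50.8 and 58.8 after knockdown and 65.1 and 71.4 in controls, so that the NU7441 arrays lay on both sides of the controls. RPS26, a 40S protein at the mRNA exit, had 74.6 and 46.2 with NU7441, 105 and 103 after knockdown and 74.7 and 88.2 in controls, and knockdown minus NU7441 was 0.83 ± 0.26 (adjusted p = 0.0815 in limma's test). RPS9, a 40S protein at the mRNA entry, had 539 and 725 with NU7441, 491 and 523 after knockdown and 469 and 539 in controls.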
